A study of Mus musculus with 32 samples.

Results

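The genes described here are 10 transcription regulators that act in B-cell specification: Foxo1, Lef1, Erg, Ikzf1, Ikzf3, Irf4, Irf8, Spib, Bach2 and Pou2af1. They were taken by name, and every probe set annotated to one of them alone was kept, which gave 22 of the 45101 probe sets on the array and 10 of the 18193 genes that these can measure. A probe set is a group of short probes against the 3' end of a transcript, or of several that share the sequence. Foxo1 had 4 probe sets, Bach2 and Ikzf3 had 3 each, Erg, Ikzf1, Irf4, Irf8 and Lef1 had 2 each, and Spib and Pou2af1 had 1 each. Values by sample are given for 1 probe set per gene, the one whose values varied most over the 3 experiments, and the others are given by their changes.

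Ebf1 and Pax5 are the transcription factors that specify and commit lymphoid progenitors to the B lineage, and they work in a network with the genes described here. Foxo1, Lef1 and Erg are DNA-binding factors of the early B-cell stages, Ikzf1 and Ikzf3 encode the zinc finger proteins Ikaros and Aiolos that restrain the proliferation of pre-B cells, and Irf4 and Irf8 bind together with ETS partners, Spi-B among them, at the immunoglobulin light chain and other loci. Bach2 encodes a repressor that acts at the pre-B cell receptor checkpoint and later holds back plasma cell differentiation, and Pou2af1 encodes a B-cell coactivator of octamer-binding factors.

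RNA from mouse cells was hybridised to 32 arrays in 3 experiments. In the first, the pre-B cell line 230238 was transduced with a pMIG retroviral vector for Ebf1-Engrailed, which fuses Ebf1 to a repressor domain (3 samples), or with pMIG alone (3 samples), and GFP-positive cells were sorted, so all results of this experiment come from a single cell line. In the second, progenitors from Ebf1-/- fetal livers of embryonic day 14.5, grown on OP9 stromal cells with KIT ligand, FLT3L and IL-7, carried pMIG-Ebf1-ER, an Ebf1 that 4-hydroxytamoxifen activates, and were taken after 0, 6, 12 and 24 h with 0.1 uM of the drug (2 arrays each). All 4 times share the Ebf1 deletion and the Ebf1-ER vector, there was no vector-only arm, and the effects of the drug itself, of time in culture and of Ebf1-ER cannot be told apart. In the third, live-sorted cells of enlarged lymph nodes from 8 C57BL/6 Ebf1+/-Pax5+/- mice aged about 30 weeks (2 arrays each) were set beside sorted pro-B cells of wild-type C57BL/6 mice (2 arrays), whose tissue and age the labels do not give. The labels name no B-cell marker in the sort of the lymph node cells. Each lymph node was taken as 1 mouse, from the number in its label, and lymph nodes of another genotype were not analysed here.

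In the deposited matrix log2 values had been set relative to a middle value of each probe set, separately in each experiment. So only differences between arrays of an experiment can be read, and the labelled cell type of a group could not be checked by an absolute level. Across the 5 probe sets of Ebf1, 4 were lower with Ebf1-Engrailed than with empty vector, by log2 differences of -1.77 to -1.50, and 4 were lower at 24 h than at 0 h of Ebf1-ER induction, by -0.77 to -0.57. In the lymph nodes 4 Ebf1 probe sets were lower than in wild-type pro-B cells, by -1.01 to -0.72, and 1457441_at was higher by 4.48 ± 0.18 (limma, n = 8 and 2, adjusted p = 8.1e-08). Whether these probes also read the Ebf1 of the vectors was not examined, so the source of the Ebf1 signal is not known. In the Ebf1-ER experiment both 0 h arrays stood apart from the 6 later ones, and the leading principal component took 67.3% of the variance. The wild-type pro-B arrays stood apart from all lymph nodes in a list of 15 myeloid markers, whose mean was 3.06 and 3.27 there, against -0.89 to 0.81 in the lymph nodes.

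The sequences just upstream of these genes are shown because Ebf1 binds palindromic sites with the core CCCNNGGG. The windows run from 250 bases before to 50 bases after each annotated start and are those of RefSeq on GRCm38.p6; 9 of the 10 genes had at least 1, 16 in all. The core reads the same on both strands, and it occurred in 5 of the 16 windows, in 5 genes, and in 13.7% of all 32851 windows in the table. Each of the 5 is printed 5' to 3' along the gene, in lower case with the core in capitals.
Foxo1 (GRCm38.p6, chr3:52268087-52268386, plus strand): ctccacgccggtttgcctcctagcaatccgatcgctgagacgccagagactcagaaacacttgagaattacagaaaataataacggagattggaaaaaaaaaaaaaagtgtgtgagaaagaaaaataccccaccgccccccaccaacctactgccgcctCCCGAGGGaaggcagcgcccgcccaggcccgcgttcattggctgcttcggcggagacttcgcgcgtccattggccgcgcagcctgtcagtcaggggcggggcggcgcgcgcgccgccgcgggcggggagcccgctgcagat
Erg (GRCm38.p6, chr16:95586544-95586843, minus strand): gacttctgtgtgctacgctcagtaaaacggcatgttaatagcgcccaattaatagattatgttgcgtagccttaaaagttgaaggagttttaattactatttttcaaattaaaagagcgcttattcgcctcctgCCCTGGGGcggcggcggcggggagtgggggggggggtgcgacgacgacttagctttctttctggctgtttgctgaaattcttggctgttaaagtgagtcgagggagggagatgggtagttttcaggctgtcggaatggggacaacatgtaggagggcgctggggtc
Irf8 (GRCm38.p6, chr8:120736108-120736407, plus strand): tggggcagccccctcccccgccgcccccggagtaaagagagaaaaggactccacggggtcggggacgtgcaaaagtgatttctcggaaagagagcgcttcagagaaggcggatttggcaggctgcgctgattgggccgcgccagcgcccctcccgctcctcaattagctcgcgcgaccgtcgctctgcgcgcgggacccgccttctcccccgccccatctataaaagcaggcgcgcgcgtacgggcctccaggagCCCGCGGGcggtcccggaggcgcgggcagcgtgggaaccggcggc
Spib (GRCm38.p6, chr7:44532022-44532321, minus strand): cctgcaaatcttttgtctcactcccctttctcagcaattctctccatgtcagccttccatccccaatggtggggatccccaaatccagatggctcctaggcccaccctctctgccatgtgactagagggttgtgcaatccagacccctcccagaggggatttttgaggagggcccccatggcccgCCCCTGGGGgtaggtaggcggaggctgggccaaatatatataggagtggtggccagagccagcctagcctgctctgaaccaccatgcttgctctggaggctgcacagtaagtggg
Ikzf1 (GRCm38.p6, chr11:11685675-11685974, plus strand): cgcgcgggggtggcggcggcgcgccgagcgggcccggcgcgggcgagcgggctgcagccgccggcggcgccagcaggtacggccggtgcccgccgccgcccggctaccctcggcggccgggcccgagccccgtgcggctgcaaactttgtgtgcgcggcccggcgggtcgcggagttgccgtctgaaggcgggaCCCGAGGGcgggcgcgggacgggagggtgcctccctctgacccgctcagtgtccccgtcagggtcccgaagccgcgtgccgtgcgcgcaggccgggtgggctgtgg
With the annotated start at 0, the core began at -91 in Foxo1, at -116 in Erg, at 5 in Irf8 and at -56 in Ikzf1. In Spib it began at -65 and again at -64, as 2 overlapping matches. The windows of Lef1, Bach2, Irf4 and Pou2af1 held no such core. Among the 16 windows, GGGAA, the core bound by Ikaros proteins, occurred in 11 and CANNTG, the E-box, in 10, each counted on both strands, against 62.7% and 72.3% of all windows. The forkhead motif GTAAACA occurred in 0 of the 16 windows and in 3.6% of all. These matches describe letters in a window and are not evidence of binding.

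Expression of the repressive Ebf1 fusion in pre-B cells was accompanied by lower transcript levels for most of the 10 genes. With limma's moderated test and Benjamini-Hochberg adjustment over all 45037 probe sets tested, 12 of the 22 probe sets were lower with Ebf1-Engrailed at an adjusted p under 0.05, in 8 of the 10 genes, and 0 were higher. Over all probe sets tested, 3.72% were lower and 5.12% higher. The median log2 difference of the 22 was -0.86, against -0.02 over all probe sets. All 22 differences were negative, and in 17 the 3 Ebf1-Engrailed samples all lay below the 3 empty vector samples, which held for 14.0% of all probe sets. Nothing in the labels says whether samples of a group came from separate cultures or animals, so the errors and p-values cover the scatter of these samples alone and may leave out biological variation.

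**Figure D1:**
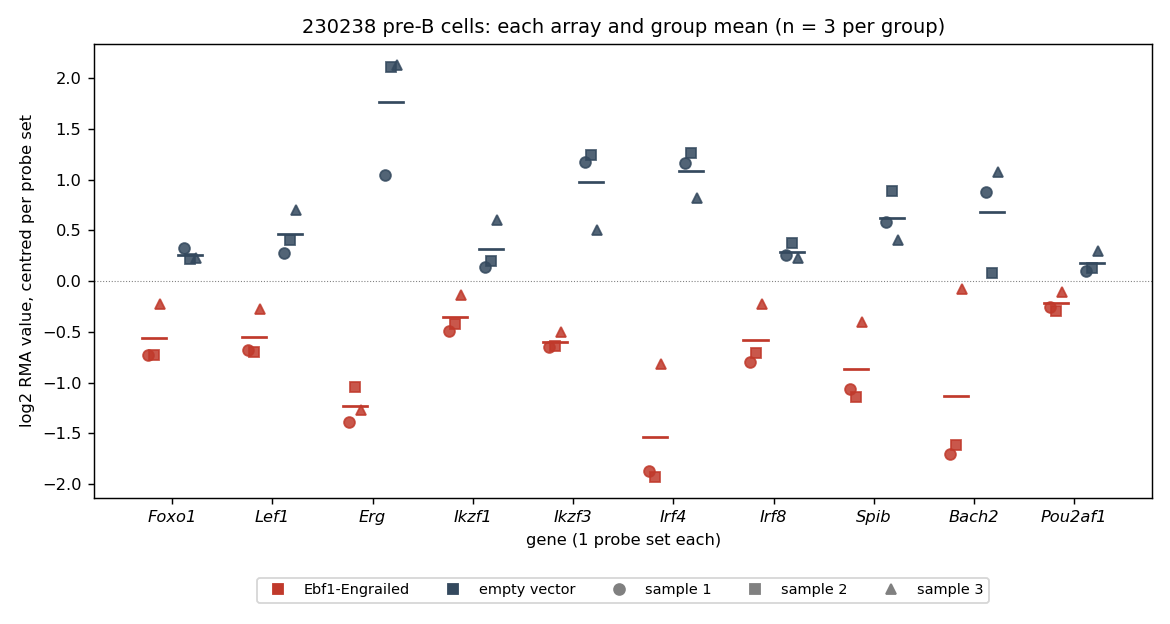
Centred log2 RMA values of 1 probe set per gene in 230238 cells, with Ebf1-Engrailed in red left of the empty vector in dark blue; each point is a sample, its shape the sample number, and each bar the mean of 3. At these probe sets all 10 genes have every Ebf1-Engrailed sample below every empty vector sample. For genes with several, the probe set was chosen for its large variance, these arrays included, which favours separate groups. Over all 22 probe sets this held for 17, and for 14.0% of all probe sets tested. For 9 of the 10 genes the highest Ebf1-Engrailed sample is number 3.

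Erg, an ETS-family factor of haematopoietic stem and progenitor cells that is also expressed in early B cells (chr16:95359169-95586600), had the largest difference with all 6 samples in the fit. Without both samples numbered 3, a choice made after the values were seen, it was second to Irf4, at -2.79 against -3.11. Its probe set 1440244_at had values of -1.38, -1.05 and -1.27 with Ebf1-Engrailed and of 1.05, 2.11 and 2.13 with empty vector. The 3 Ebf1-Engrailed samples lay close together, and the empty vector sample numbered 1 lay below the other 2. Erg was 7.97-fold lower with Ebf1-Engrailed (log2 difference -2.99 ± 0.29 SE, n = 3 and 3, limma adjusted p = 0.002). The call held in all 6 fits that left out a sample. The other Erg probe set, 1425370_a_at, differed by -0.12 ± 0.10 and did not pass the test, so the probe sets of Erg disagreed.

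Lef1, a high-mobility-group factor of Wnt signalling that pro-B cells express (chr3:131110297-131224357), had values of -0.68, -0.70 and -0.27 with Ebf1-Engrailed and of 0.27, 0.41 and 0.70 with empty vector. The groups did not overlap. Since the deposited values of this experiment were centred on each probe set's median over its 6 samples, the nearest samples of groups that do not overlap lie equally far on either side of 0 by construction. Both Lef1 probe sets were lower, 1454734_at by -1.01 ± 0.16 (adjusted p = 0.011) and 1421299_a_at by -0.95 ± 0.10 (adjusted p = 0.0028). The first of these was called in 4 of 6 fits that left out a sample, lost without Ebf1-Engrailed sample 1 or 2, and the second in all 6. Of 7 measured genes linked to Wnt signalling or Lef1, Ccnd1 was higher (1.79 ± 0.39), Nkd1 was lower (-0.69 ± 0.14) and 5 did not pass the test.

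Foxo1, a forkhead factor that early B cells need for Il7r, Rag1 and Rag2 (chr3:52268337-52350109), had values of -0.73, -0.72 and -0.22 with Ebf1-Engrailed and of 0.32, 0.22 and 0.23 with empty vector. The empty vector samples were close together, and Ebf1-Engrailed sample 3 stood between its group and them. Of the 4 Foxo1 probe sets 3 were lower, 1416981_at by -0.82 ± 0.15 (adjusted p = 0.019), 1416982_at by -0.81 ± 0.13 (adjusted p = 0.010) and 1416983_s_at by -0.84 ± 0.10 (adjusted p = 0.0044). The other, 1456529_at, differed by -0.02 ± 0.18. The 3 calls held in 2, 4 and 6 of the 6 fits that left out a sample, and those lost were lost without Ebf1-Engrailed sample 1 or 2, and for 1416981_at also without empty vector sample 1 or 2. Of 9 measured genes linked to Foxo1 in B cells, only Klf2 was lower (-0.68 ± 0.10) and only Bcl6 was higher (1.59 ± 0.16), and 7 did not pass the test, Rag1, Rag2 and Il7r among them.

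The Ikaros family members differed in size. Ikzf3 (chr11:98464610-98546031) had values of -0.65, -0.64 and -0.50 with Ebf1-Engrailed and of 1.18, 1.24 and 0.50 with empty vector, and was 2.97-fold lower at 1436649_at (log2 difference -1.57 ± 0.20, adjusted p = 0.0046). Its other 2 probe sets each differed by -0.30 and did not pass the test. Ikzf1 (chr11:11684962-11772930) had values of -0.49, -0.43 and -0.14 with Ebf1-Engrailed and of 0.14, 0.20 and 0.60 with empty vector. The Ikzf1 groups did not overlap, yet the difference of -0.66 ± 0.16 at 1436312_at was near the threshold (adjusted p = 0.047), and it was called in 1 of 6 fits that left out a sample, the one without Ebf1-Engrailed sample 3. The second Ikzf1 probe set, 1421303_at, differed by -0.18 ± 0.09. Among 5 measured genes that Ikaros proteins repress in pre-B cells, Igll1 (-4.14 ± 0.31), Vpreb1 (-2.29 ± 0.44) and Ccnd3 (-1.72 ± 0.22) were lower with Ebf1-Engrailed. Igll1 and Vpreb1 encode the surrogate light chain and are also direct targets of Ebf1.

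Irf4 and Irf8 are interferon regulatory factors with overlapping roles at the pre-B cell stage, and Spi-B is an ETS factor that can pair with them. Irf4 (chr13:30749233-30766981) had values of -1.87, -1.93 and -0.82 with Ebf1-Engrailed and of 1.16, 1.26 and 0.82 with empty vector. It was 6.14-fold lower at 1421173_at (log2 difference -2.62 ± 0.30, adjusted p = 0.0035) and was also lower at 1421174_at (-1.07 ± 0.16, adjusted p = 0.0095). Both samples numbered 3 lay nearer to 0 than the others of their group, and both Irf4 probe sets kept the call in all 6 fits that left out a sample. Irf8 (chr8:120736358-120756694) had values of -0.80, -0.71 and -0.22 with Ebf1-Engrailed and of 0.26, 0.38 and 0.22 with empty vector. Its probe set 1416714_at was 1.82-fold lower (log2 difference -0.87 ± 0.16, adjusted p = 0.019), a call that held in 2 of 6 such fits, those without either sample numbered 3. The second Irf8 probe set, 1448452_at, had the same difference with a larger error (-0.87 ± 0.28, adjusted p = 0.12). Spib (chr7:44525995-44532087) had values of -1.06, -1.14 and -0.41 with Ebf1-Engrailed and of 0.58, 0.89 and 0.41 with empty vector, without overlap. Spib was 2.82-fold lower (log2 difference -1.50 ± 0.22, adjusted p = 0.0083), and the call was lost without Ebf1-Engrailed sample 1 alone.

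Bach2 and Pou2af1 were not called. Bach2 (chr4:32238413-32586109) had values of -1.70, -1.61 and -0.08 with Ebf1-Engrailed and of 0.88, 0.08 and 1.08 with empty vector. Ebf1-Engrailed sample 3 and empty vector sample 2 lay next to each other near 0, and the groups touched without overlap. The log2 difference was -1.81 ± 0.47 (adjusted p = 0.061), with a 95% interval of -2.92 to -0.71, and 1436515_at differed by -1.52 ± 0.51 (adjusted p = 0.13). Pou2af1 (chr9:51213690-51240079) had values of -0.26, -0.29 and -0.10 with Ebf1-Engrailed and of 0.10, 0.12 and 0.30 with empty vector, a small difference without overlap (-0.39 ± 0.10, adjusted p = 0.057). In this experiment deviations from group means, over all probe sets, correlated at 0.256 to 0.481 in same-numbered pairs, most in those numbered 3. Ebf1-Engrailed sample 1 correlated more with empty vector sample 2 (0.345) than with that of its own number. A pairing of samples 1 and 2 by number was thus not shown. At Irf4, Spib and Ikzf3 the samples numbered 3 deviated from their groups in opposite directions. A fit with the number as a replicate block was also made. With it 15 probe sets in all 10 genes were called, Bach2 included at both 1437667_a_at (adjusted p = 0.0079) and 1436515_at (adjusted p = 0.0017) and Pou2af1 at an adjusted p of 0.035. Without both samples numbered 3, a choice made after the values were seen, 17 probe sets were called, and Bach2 differed by -2.14 (adjusted p = 0.0039). Calls rose in general in these 2 fits, from 3984 of all 45037 probe sets to 6167 with the block and 8274 without both samples numbered 3.

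Of a list of 33 other B-lineage regulators, 31 were measured by 103 probe sets. Here and in the other lists a gene was counted if any of its probe sets was called. Over all probe sets 3.72% were lower and 5.12% higher with Ebf1-Engrailed. With Ebf1-Engrailed 11 of the 31 were lower, 7 were higher and 13 did not pass the test. Those lower included Tcf3, the gene of the E2A proteins (-1.63 ± 0.22), Myb (-2.42 ± 0.38) and Bcl11a (-2.07 ± 0.19), and those higher included the E-protein inhibitors Id2 (2.83 ± 0.27) and Id3 (2.01 ± 0.09). Pax5 did not pass the test at either of its probe sets. Beside these differences, 6 of 15 measured pro-B and pre-B markers were lower and 1 was higher with Ebf1-Engrailed, 4 of 15 myeloid markers were higher and 0 lower, and 4 of 12 mature B-cell markers were higher and 1 lower. The mean of the myeloid list was 0.49 to 0.64 with Ebf1-Engrailed and -0.68 to -0.48 with empty vector. Their part in the differences of the 10 genes was not tested. In bulk samples, fewer cells of a type and less RNA per cell cannot be told apart.

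When Ebf1-ER was activated in Ebf1-/- progenitors, the 10 genes took different courses. Irf8, Bach2, Spib, Irf4 and Ikzf1 were lower at 6 h and still lower at 24 h, and Foxo1 was lower at 6 h and not lower at 24 h. Erg, Ikzf3 and Lef1 were higher at 24 h than at 0 h, each at only 1 of its probe sets. At 6 h 9 probe sets in 6 genes were lower than at 0 h and 0 were higher, against 14.7% lower and 14.2% higher of all probe sets. At 12 h 9 probe sets were lower and 1 was higher, in 6 genes and 1 gene, against 17.1% and 15.4% of all. At 24 h 7 probe sets in 5 genes were lower and 4 in 4 genes were higher, against 16.3% and 16.1% of all. These 3 comparisons share the 0 h arrays, so the later times were also compared with each other. Between 24 h and 6 h 4 probe sets were higher and 2 lower, in 2 genes and 1 gene, against 3.32% and 2.84% of all. The replicate numbers did not pair the arrays in this experiment.

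**Figure D2:**
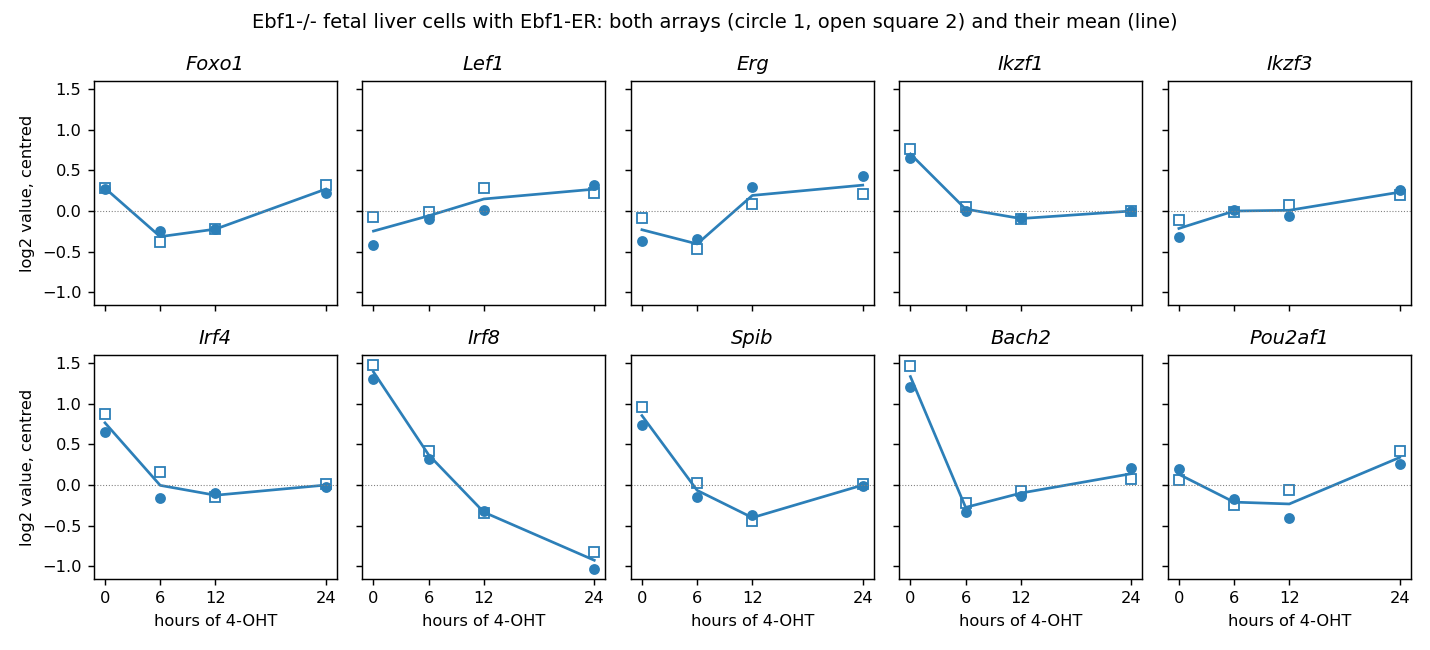
Centred log2 RMA values of 1 probe set per gene in Ebf1-/- fetal liver cells with Ebf1-ER against hours of 4-hydroxytamoxifen (4-OHT); filled circles are array 1, open squares array 2, and the line joins their means. Irf8 falls at each step, to -1.03 and -0.82 at 24 h, while Bach2, Spib, Irf4 and Ikzf1 are highest at 0 h and Foxo1 has its low point at 6 h.

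Irf8 had values of 1.31 and 1.48 at 0 h, 0.32 and 0.42 at 6 h, -0.32 and -0.34 at 12 h, and -1.03 and -0.82 at 24 h. No array of a time overlapped those of another, and each step went down. Irf8 was 4.99-fold lower at 24 h than at 0 h (log2 difference -2.32 ± 0.11, n = 2 and 2, limma adjusted p = 9.1e-06) and 2.46-fold lower at 24 h than at 6 h (-1.30 ± 0.11, adjusted p = 0.00054). Its second probe set gave -1.92 ± 0.09 and -1.07 ± 0.09 for the same comparisons, both called. It was the only gene of the 10 that was lower at 24 h than at 6 h.

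Bach2 had values of 1.21 and 1.47 at 0 h, -0.33 and -0.22 at 6 h, -0.13 and -0.07 at 12 h, and 0.21 and 0.07 at 24 h. Both 0 h arrays were far above the 6 others, and the lowest values were those at 6 h. Bach2 was 3.06-fold lower at 6 h than at 0 h (log2 difference -1.61 ± 0.11, adjusted p = 4.4e-05) and 2.29-fold lower at 24 h than at 0 h (-1.20 ± 0.11, adjusted p = 1.4e-04). The difference between 24 h and 6 h, 0.42 ± 0.11, did not pass the test (adjusted p = 0.083). The second probe set, 1436515_at, was lower at each time by -1.50, -1.30 and -1.22, and 1445460_at differed by at most -0.13 and was not called.

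Spib, Irf4 and Ikzf1 fell at 6 h and did not pass the test between 24 h and 6 h. Spib had values of 0.74 and 0.97 at 0 h, -0.15 and 0.02 at 6 h, -0.37 and -0.44 at 12 h, and -0.01 and 0.01 at 24 h, and its 24 h arrays were below 0 h by -0.86 ± 0.11 (adjusted p = 0.00061). Irf4 had values of 0.66 and 0.87 at 0 h, -0.16 and 0.16 at 6 h, -0.10 and -0.15 at 12 h, and -0.02 and 0.02 at 24 h, with a difference of -0.77 ± 0.13 between 24 h and 0 h (adjusted p = 0.0024). Ikzf1 had values of 0.65 and 0.76 at 0 h, -0.01 and 0.05 at 6 h, -0.09 and -0.10 at 12 h, and 0.00 and -0.00 at 24 h, with a difference of -0.70 ± 0.09 between 24 h and 0 h (adjusted p = 0.00051). In all 3 genes both 0 h arrays lay above the other 6. These falls were seen at 1 probe set each: Irf4 1421174_at differed from 0 h by -0.04 to 0.05 and Ikzf1 1421303_at by -0.02 to 0.09. For the change between 24 h and 6 h the 95% intervals were -0.19 to 0.32 in Spib, -0.29 to 0.30 in Irf4 and -0.22 to 0.18 in Ikzf1.

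Foxo1 had values of 0.28 and 0.29 at 0 h, -0.25 and -0.38 at 6 h, -0.22 and -0.22 at 12 h, and 0.22 and 0.32 at 24 h. The 0 h and 24 h arrays overlapped, and all 4 arrays of 6 h and 12 h lay below them. Foxo1 1416981_at fell by 0.60 at 6 h (SE 0.09, adjusted p = 0.0017), was still lower at 12 h (-0.50 ± 0.09, adjusted p = 0.0034), and differed by -0.01 ± 0.09 at 24 h. Between 24 h and 6 h it was higher by 0.59 ± 0.09 (adjusted p = 0.010), and 1416983_s_at gave the same course, with 0.65 ± 0.09 (adjusted p = 0.0072). Another probe set, 1416982_at, had values of -0.02 and 0.01 at 0 h, -0.24 and -0.32 at 6 h, 0.00 and -0.00 at 12 h, and 0.60 and 0.79 at 24 h. There Foxo1 was higher at 24 h than at 0 h by 0.70 ± 0.10 (adjusted p = 0.00089) and than at 6 h by 0.98 ± 0.10 (adjusted p = 0.0012). So 3 of the 4 Foxo1 probe sets were higher at 24 h than at 6 h, and they disagreed on 24 h against 0 h. The call between 24 h and 6 h held in all 8 fits that left out an array at 1416982_at, and in 5 and 6 of 8 at 1416981_at and 1416983_s_at. The remaining one, 1456529_at, was not called at any time. Of the 9 measured genes linked to Foxo1, 8 were lower at 6 h than at 0 h, 9 at 12 h and 7 at 24 h. Between 24 h and 6 h Ccng2 (1.21 ± 0.09), Rag1 (1.01 ± 0.11) and Rag2 (1.20 ± 0.11) were higher, and 6 did not pass the test.

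Erg had values of -0.37 and -0.09 at 0 h, -0.34 and -0.47 at 6 h, 0.30 and 0.09 at 12 h, and 0.43 and 0.21 at 24 h. The 4 arrays of 12 h and 24 h lay above the 4 earlier ones. Erg was higher at 24 h than at 0 h by 0.55 ± 0.14 (adjusted p = 0.017) and than at 6 h by 0.72 ± 0.14 (adjusted p = 0.023). Its call at 12 h against 0 h (0.42 ± 0.14, adjusted p = 0.049) held in 1 of 8 fits that left out an array, and that at 24 h in 6 of 8, lost without array 1 of 0 h or of 24 h. The call between 24 h and 6 h was lost without either array of either time. All these values are from 1440244_at. The other Erg probe set, 1425370_a_at, differed at 24 h by 0.34 ± 0.13 from 0 h and by 0.36 ± 0.13 from 6 h. Neither difference passed the test (adjusted p = 0.093 and 0.18).

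Ikzf3 and Lef1 moved little. Ikzf3 had values of -0.32 and -0.11 at 0 h, 0.01 and -0.01 at 6 h, -0.06 and 0.07 at 12 h, and 0.26 and 0.20 at 24 h, and was higher at 24 h than at 0 h by 0.45 ± 0.10 (adjusted p = 0.012). Lef1 had values of -0.42 and -0.07 at 0 h, -0.10 and -0.02 at 6 h, 0.02 and 0.28 at 12 h, and 0.32 and 0.22 at 24 h, and was higher at 24 h than at 0 h by 0.52 ± 0.14 (adjusted p = 0.025). In both genes the 2 arrays of 24 h lay above the 2 of 0 h, and the 0 h arrays differed from each other by more than those of 24 h. Both calls were lost without array 1 of 0 h or array 1 of 24 h, and that of Lef1 also without array 2 of 24 h. Other probe sets of these genes did not pass the test between 24 h and 0 h. Lef1 1421299_a_at differed by 0.28 ± 0.20 (adjusted p = 0.36). Ikzf3 1441088_at and 1453378_at differed by 0.46 ± 0.18 and 0.04 ± 0.22 (adjusted p = 0.096 and 0.91). Pou2af1 had values of 0.20 and 0.06 at 0 h, -0.18 and -0.24 at 6 h, -0.40 and -0.06 at 12 h, and 0.26 and 0.42 at 24 h, and passed the test in no comparison. Its difference between 24 h and 6 h was 0.55 ± 0.13 at an adjusted p of 0.0501, just outside the threshold, and it was called in 2 of 8 fits that left out an array, those without either array of 12 h.

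Of the 31 other regulators, 16 were lower at 24 h than at 0 h, 3 were higher, 2 had probe sets of both kinds and 10 did not pass the test. Those lower included Klf2 (-2.81 ± 0.09) and Tcf4 (-1.36 ± 0.10), and the genes higher were Ikzf4 (1.27 ± 0.12), Tcf3 (0.46 ± 0.10) and Xbp1 (0.55 ± 0.10). Among the 5 genes that Ikaros proteins repress in pre-B cells, Igll1 (3.59 ± 0.09) and Vpreb1 (1.97 ± 0.12) were higher at 24 h than at 0 h, Myc (-0.93 ± 0.10) and Cdk6 (-0.57 ± 0.11) were lower, and the 2 called probe sets of Ccnd3 disagreed. Marker lists of other cell types did not all move one way. Of 9 measured dendritic cell markers 5 were lower at 24 h than at 0 h, Itgax (-2.33 ± 0.13), Siglech (-1.62 ± 0.14), Flt3, Ccr9 and Bst2, and 0 were higher. Of 15 myeloid markers 6 were lower and 1 higher, 6 of 10 markers of NK and innate lymphoid cells were lower, of 15 T-cell markers 6 were lower, and of 12 stromal markers 6 were lower and 1 higher. Of 12 mature B-cell markers 4 were lower, of 7 plasma cell markers 1 was lower and 3 higher, of 10 endothelial markers 1 was lower and 1 higher, and 0 of 5 erythroid markers passed the test. These are counts of genes, and over all probe sets 16.3% were lower and 16.1% higher. The dendritic list averaged -0.12 and -0.05 on the 24 h arrays and 0.55 and 0.63 on the 0 h arrays. Irf8 and Spib are also expressed in dendritic cells, and the part of these cells in their falls was not tested.

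The Ebf1-Engrailed and Ebf1-ER experiments share no samples, so their calls were set side by side. At 4 probe sets, those of Erg, Foxo1 (1416982_at), Ikzf3 and Lef1, the signal was lower with Ebf1-Engrailed and higher at 24 h of Ebf1-ER than at 0 h, which held for 1.87% of all probe sets. At another 4, those of Ikzf1, Irf4, Irf8 and Spib, it was lower with Ebf1-Engrailed and also lower at 24 h than at 0 h, which held for 0.517% of all. Set against 6 h instead of 0 h, 4 probe sets, 3 of Foxo1 and 1 of Erg, were lower with Ebf1-Engrailed and higher at 24 h, against 1.08% of all. These shares of all probe sets depend on how many were lower with Ebf1-Engrailed, 12 of the 22 against 3.72% of all. Of all 1676 probe sets lower with Ebf1-Engrailed, 844 were higher and 233 lower at 24 h than at 0 h, and 487 were higher than at 6 h. The counts above are to be read against these, as parts of the 12. The core CCCNNGGG printed above occurred in windows of genes of both kinds, in Erg and Foxo1 and in Ikzf1, Irf8 and Spib.

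**Figure D3:**
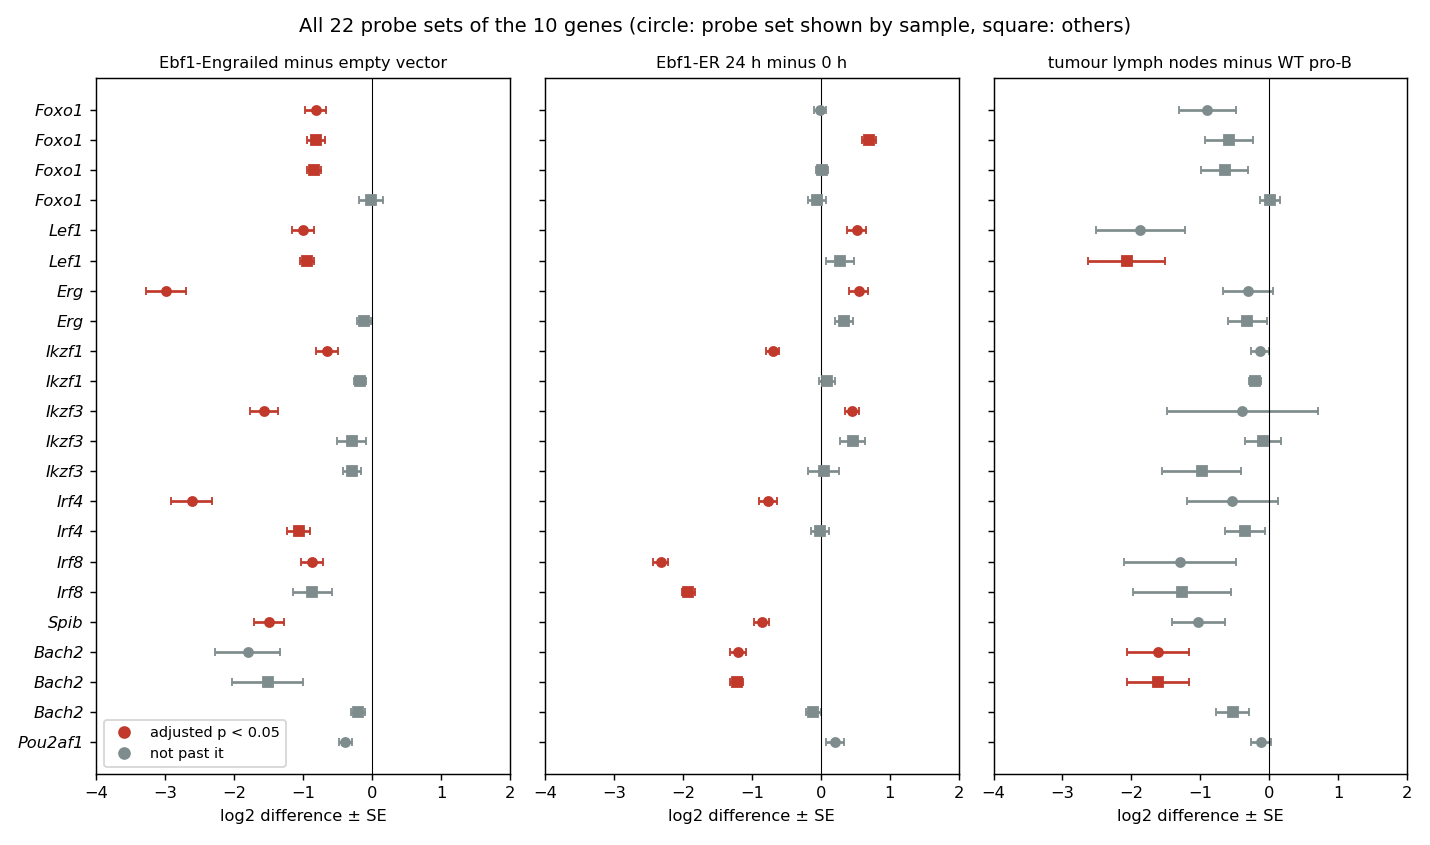
Log2 difference with its SE for each of the 22 probe sets (rows; circles are the probe sets shown by sample) in 3 comparisons, red where the adjusted p is under 0.05. In the left panel all 22 lie below 0; in the middle Irf8 lies farthest left, at -2.32, and Foxo1, Lef1, Erg and Ikzf3 each have a red point right of 0; in the right panel only 1 Lef1 and 2 Bach2 probe sets are red.

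In the enlarged lymph nodes of Ebf1+/-Pax5+/- mice Bach2 and Lef1 were lower than in wild-type pro-B cells, and at the probe sets shown by sample the spread between lymph nodes ran from 1.4-fold for Ikzf1 to 19.3-fold for Ikzf3. Against wild-type cells 3 of 22 probe sets in 2 genes were lower and 0 were higher, against 6.94% and 8.26% of all probe sets. The median log2 difference of the 22 was -0.56, against 0.01 over all, and 21 were negative. In 6 probe sets all 8 lymph nodes lay below both wild-type arrays, against 11.5% of all: both of Lef1, both of Irf8, that of Spib, and Ikzf1 1421303_at. These groups differ in more than genotype. In the lymph nodes 11 of 15 myeloid markers, 4 of 5 erythroid markers and 6 of 12 stromal markers were lower than in wild-type pro-B cells and none of these lists had a higher member. The erythroid list averaged -0.09 to 0.18 in the lymph nodes and 2.03 and 1.91 on the wild-type arrays, and the stromal list averaged -0.03 to 0.16 in the lymph nodes and 0.60 and 0.85 on the wild-type arrays. The part of such cells in the differences below was not tested. Tissue, sorting, tumour and genotype cannot be told apart between these groups.

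**Figure D4:**
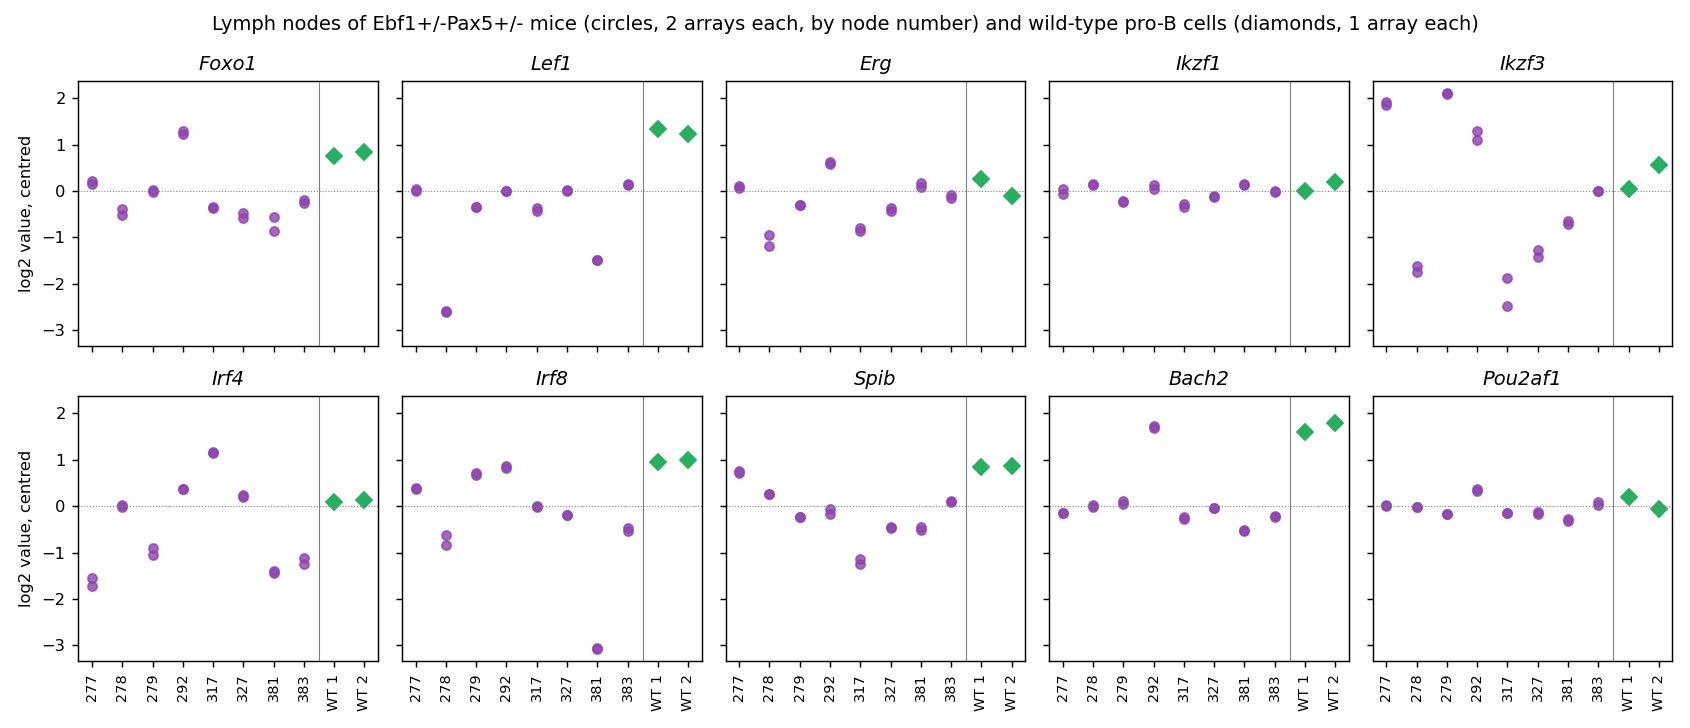
Centred log2 RMA values of 1 probe set per gene for 8 lymph nodes (purple circles, 2 arrays each, by the number in the label) and, right of the line, 2 wild-type pro-B arrays (green diamonds). Lymph node 292 alone reaches the wild-type level of Bach2, at 1.70, lymph node 381 stands apart in Irf8, at -3.06, and Ikzf3 spreads from -2.17 to 2.10.

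Bach2 had a lowest value of -0.52 in lymph node 381, a median of -0.09 and a highest value of 1.70 in lymph node 292, with 1.60 and 1.79 on the wild-type arrays. The 7 lymph nodes other than 292 all lay below both wild-type arrays, at 0.08 or less, and 292 lay between them. Bach2 was 3.07-fold lower in the lymph nodes as a group (log2 difference -1.62 ± 0.45, n = 8 and 2, limma adjusted p = 0.037), and its second probe set differed by -1.61 ± 0.45 (adjusted p = 0.036). Without lymph node 292 the difference was -1.85 ± 0.15 (adjusted p = 5.5e-05). The first call was lost in each of the other 9 fits that left out a lymph node or a wild-type array, with adjusted p of 0.051 to 0.23. Bach2 represses genes of plasma cell and myeloid character, and of 4 measured genes on that list Cebpb (-3.64 ± 0.78) and Hmox1 (-2.02 ± 0.10) were lower in the lymph nodes, both of which myeloid cells express. Prdm1, the plasma cell regulator, did not pass the test.

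Lef1 had a lowest value of -2.60 in lymph node 278, a median of -0.17 and a highest value of 0.15 in lymph node 383, with 1.34 and 1.23 on the wild-type arrays. All lymph nodes lay below wild type, and 278 and 381 (-1.49) lay far below the other 6. The probe set 1421299_a_at was 4.21-fold lower (log2 difference -2.07 ± 0.56, adjusted p = 0.032), and 1454734_at differed by -1.87 ± 0.64 (adjusted p = 0.078). The call was lost without either wild-type array, at adjusted p of 0.19 and 0.16, and held without any 1 lymph node.

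Irf8 had a lowest value of -3.06 in lymph node 381, a median of -0.10 and a highest value of 0.85 in lymph node 292, with 0.95 and 0.99 on the wild-type arrays. Every lymph node lay below wild type, 292 by the least and 381 by the most, and the group difference of -1.30 ± 0.81 did not pass the test (adjusted p = 0.33, 95% interval -3.10 to 0.51). Spib had a lowest value of -1.19 in lymph node 317, a median of -0.18 and a highest value of 0.73 in lymph node 277, with 0.85 and 0.86 in wild type. It too was below wild type in every lymph node, and its difference of -1.03 ± 0.38 did not pass the test (adjusted p = 0.10). Foxo1 had a lowest value of -0.71 in lymph node 381, a median of -0.29 and a highest value of 1.26 in lymph node 292, with 0.75 and 0.85 in wild type. Only lymph node 292 exceeded wild type in Foxo1, and the group difference of -0.90 ± 0.41 did not pass the test (adjusted p = 0.18). Without lymph node 292 the difference was -1.10 ± 0.21 (adjusted p = 0.007), and no fit that left out another lymph node called it. The other Foxo1 probe sets differed by -0.59 ± 0.35 (1416982_at), -0.65 ± 0.34 (1416983_s_at) and 0.01 ± 0.14 (1456529_at), and none passed the test with all lymph nodes.

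Differences between the 8 lymph nodes were tested with limma's moderated F test over their 16 arrays, with the scatter of the 2 arrays within each lymph node as the error. It sets differences between lymph nodes against array noise alone and says nothing about mice of the same genotype in general. At an adjusted p under 0.05, 21 of the 22 probe sets differed between lymph nodes by more than that noise, in all 10 genes, against 54.0% of all probe sets, and Ikzf1 1421303_at did not pass (adjusted p = 0.51). Ikzf3 and Irf8 had the widest ranges, 19.3-fold and 15.0-fold between the lowest and the highest lymph node, followed by Irf4 (6.9-fold), Lef1 (6.7-fold), Bach2 (4.7-fold), Foxo1 (3.9-fold), Spib (3.8-fold) and Erg (3.2-fold). Pou2af1 (1.6-fold) and Ikzf1 (1.4-fold) had the narrowest ranges of the probe sets shown. For genes with several probe sets the one shown was chosen for its large variance, these arrays included, which favours a wide range. The second probe sets of Irf8 and Irf4 ranged 10.5-fold and 2.0-fold.

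Ikzf3 had values of 1.89 in lymph node 277, -1.68 in 278, 2.10 in 279, 1.19 in 292, -2.17 in 317, -1.35 in 327, -0.67 in 381 and 0.00 in 383, with 0.05 and 0.56 in wild type. At this probe set the lymph nodes 277, 279 and 292 lay above both wild-type arrays and the other 5 below, and the group difference of -0.39 ± 1.09 did not pass the test (adjusted p = 0.86). The other 2 Ikzf3 probe sets had narrower ranges. At 1453378_at, with a 5.3-fold range, only lymph node 279 lay above both wild-type arrays and 6 lay below both. At 1441088_at, with a 1.9-fold range, 3 lay above and 5 below. Irf4 had values of -1.64 in lymph node 277, 0.00 in 278, -0.97 in 279, 0.37 in 292, 1.16 in 317, 0.22 in 327, -1.42 in 381 and -1.18 in 383, with 0.10 and 0.12 in wild type. The lymph nodes 292, 317 and 327 lay above wild type and the other 5 below. The rankings that follow are those at the probe sets shown by sample. Lymph node 317 was the highest of the 8 for Irf4 and the lowest for Ikzf3, Spib and Ikzf1, and lymph node 277 was the lowest for Irf4 and the highest for Spib. Lymph node 292 was the highest for 5 genes, Bach2, Erg, Foxo1, Irf8 and Pou2af1, and lymph node 381 was the lowest for 4, Bach2, Foxo1, Irf8 and Pou2af1. Other probe sets did not all give the same order. At Irf4 1421174_at the highest was lymph node 327, at 0.31. Lymph node 317 had 0.17 there, between the wild-type arrays at 0.08 and 0.26. At Ikzf1 1421303_at the lowest was lymph node 383.

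Erg ranged from -1.06 in lymph node 278 to 0.60 in lymph node 292 around a median of -0.21, with 0.27 and -0.12 in wild type, and its group difference of -0.31 ± 0.36 did not pass the test. Pou2af1 ranged from -0.29 in lymph node 381 to 0.35 in lymph node 292 around -0.08, with 0.21 and -0.06 in wild type. Ikzf1 ranged from -0.31 in lymph node 317 to 0.15 in lymph node 381 around -0.01, with -0.00 and 0.19 in wild type. Lymph node and wild-type values overlapped in all 3 genes, and the group differences of Pou2af1 and Ikzf1 were -0.12 ± 0.15 and -0.13 ± 0.13.

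Marker lists differed between the lymph nodes as well. In lymph node 279, which had the highest Ikzf3 value, the T-cell list averaged 2.07, the NK and innate lymphoid list 2.28 and the mature B-cell list 1.28, each the highest of the 8, and Ikzf3 is also expressed in T, NK and mature B cells. Lymph nodes 277 and 292, the next highest for Ikzf3, had T-cell means of -0.22 and 0.02. Their NK and innate lymphoid means were -0.6 and 0.09 and their mature B-cell means -0.45 and 0.35. Lymph node 383, at 0.00 for Ikzf3, had means of 0.81, 0.54 and 0.61 in these 3 lists. The pro-B and pre-B list averaged 0.31 in lymph node 292 and -0.74 in lymph node 381, its highest and lowest lymph nodes, and 0.37 and 0.19 in wild type. The myeloid mean of lymph node 381, which had the lowest Irf8 value, was -0.26, and those of the 8 ran from -0.89 to 0.81. The part of cell makeup in the differences between lymph nodes was not tested. Over all probe sets 6.94% were lower and 8.26% higher in the lymph nodes than in wild-type cells. The 31 other regulators had 103 probe sets, and a gene was counted if any of its probe sets was called. Of the 31, 8 were lower, 2 were higher, 1 had probe sets of both kinds and 20 did not pass the test. Tcf3 (-1.56 ± 0.37) was among those lower, and Bcl11a (1.31 ± 0.28) and Pou2f2 (0.88 ± 0.22) were the 2 higher. Pax5, whose genotype is heterozygous in the lymph nodes, was lower at 1 of its 2 probe sets (-0.77 ± 0.17), and the other differed by 0.40 and did not pass the test.

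**Figure D5:**
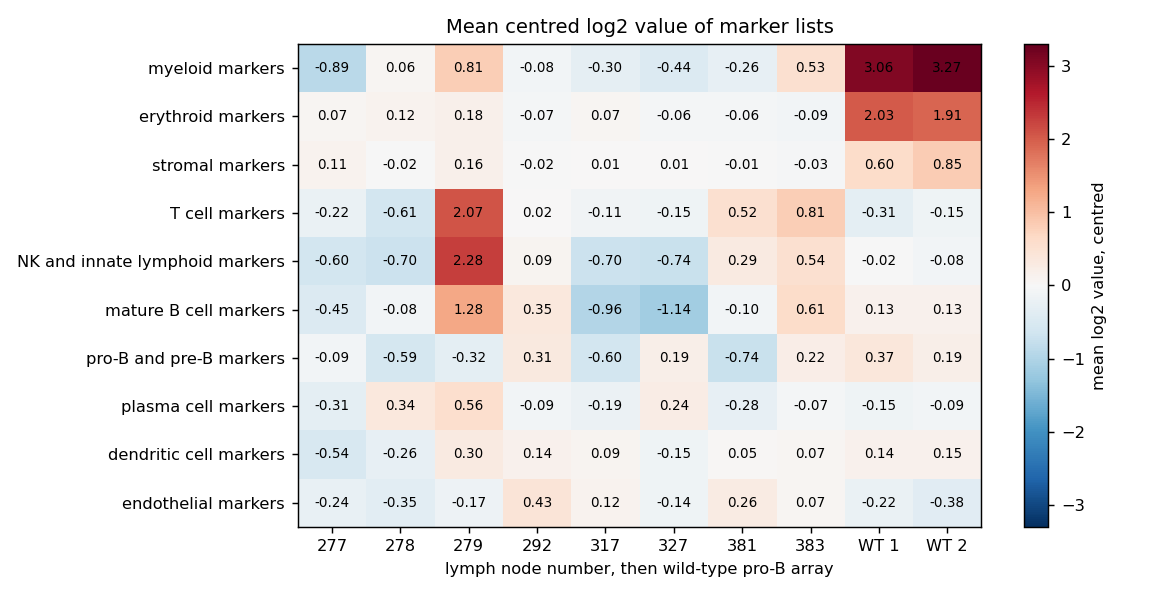
Mean centred log2 value over all probe sets of the measured genes of each marker list (rows) in each lymph node and on each wild-type pro-B array (columns). The value is printed in each cell, and Irf4 was left out of the plasma cell list. The wild-type arrays are highest in the myeloid, erythroid and stromal lists, and lymph node 279 in the T-cell, NK and innate lymphoid and mature B-cell lists.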

How the data were processed

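The deposited matrix holds log2 expression values from 32 Affymetrix mouse arrays, produced by RMA, according to the submitters' processing notes, a method that corrects background, normalises arrays to each other and combines the probes of each set. The logarithm's base is not given in the sources used here and was read as 2. The median of every probe set was within 1e-05 of 0 over the arrays of the Ebf1-Engrailed and of the Ebf1-ER experiment, and that of 24.0% of probe sets in the lymph node experiment, so values had been centred per probe set, there on another constant. No filter on low values was possible. The number of arrays limits the precision.

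Gene names came from GEO's platform annotation and were updated through the RefSeq gene table: 34945 had 1 gene symbol, 932 several and 9160 none, after 64 control probe sets were left out. Each experiment was fitted apart over 45037 probe sets in limma 3.58.1 (lmFit, eBayes) under R 4.3.3. Errors are limma's standard errors, p-values are two-sided with Benjamini-Hochberg adjustment over all probe sets, and calls were made at an adjusted p under 0.05. Each lymph node entered the comparison with wild type as the mean of its 2 arrays. The script was tested on simulated data.

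Genes, lists and tests were chosen with earlier results of these data known. Named non-members come from the lists. In the Ebf1-Engrailed experiment deviations from group means correlated at 0.256 to 0.481 in the 3 same-numbered pairs and at -0.454 to 0.345 in the others. Ebf1-Engrailed sample 1 correlated more with empty vector sample 2 (0.345) than with empty vector sample 1 (0.256). The numbers thus set the samples numbered 3 apart, and a pairing of samples 1 and 2 by number was not shown. Alternatives were the gene in place of the probe set, array re-centring, a variance filter, robust eBayes, the replicate block and leaving out each sample.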

Additional observations from a re-analysis of the deposited data

Results flagged for a closer look

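Lymph node 292 stood apart from the other 7 at all 3 Bach2 probe sets, with means of 1.70 at 1437667_a_at, 1.71 at 1436515_at and 0.81 at 1445460_at, and at Foxo1 1416981_at, with 1.26. Lymph node 381 stood apart at both Irf8 probe sets, with -3.06 at 1416714_at and -2.66 at 1448452_at. In each case the gap to the nearest lymph node took a larger share of the range of the 8 than Dixon's 95% critical value allows. Such a gap was found at 6 of the 22 probe sets checked. In normally distributed values chance alone gives one in about 1 of 20 groups. The share of all probe sets with such a gap was not counted, so it is not known whether 6 of 22 is unusual among these lymph nodes. Probe sets of a gene measure the same RNA and do not count separately. The causes were not tested.

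The level at 24 h of Ebf1-ER induction differed from that at 6 h, by limma's test of 24 h minus 6 h, in 3 genes. It was higher at 24 h by 0.72 at Erg 1440244_at alone of its probe sets (adjusted p = 0.023) and by 0.59, 0.98 and 0.65 at 3 probe sets of Foxo1, 1416981_at, 1416982_at and 1416983_s_at (adjusted p = 0.010, 0.0012 and 0.0072). Against 0 h, 1416981_at and 1416983_s_at differed by -0.60 and -0.63 at 6 h and by -0.01 and 0.02 at 24 h. The level was lower at 24 h than at 6 h in Irf8, by -1.30 and -1.07 (adjusted p = 0.00054 and 0.00048). The causes were not tested.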

How the results depend on the processing

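Of 884 values for single genes under an alternative, 794 kept their direction and side of the threshold, 57 lost a call, 23 gained one and 10 changed sign. For Foxo1 the probe set decided: with the most variable one the difference was 0.01 at 12 h and 0.70 at 24 h against 0 h, and with the mean of all 4 it was 0.16 at 24 h. Leaving out arrays, Foxo1 at 24 h against 0 h ran from -0.06 to 0.04. The other sign changes were of values near 0 that passed no test: between 24 h and 6 h Ikzf1 (0.04 with the mean of its probe sets, -0.05 to 0.01 leaving out arrays), Irf4 (-0.16 to 0.16) and Spib (-0.02 to 0.15), and Pou2af1 in the lymph nodes (-0.25 to 0.02).

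Counts of the 10 genes called leaving out a sample ran from 5 (without Ebf1-Engrailed sample 1) to 10 for Ebf1-Engrailed, 6 to 7, 6 to 8 and 6 to 9 for Ebf1-ER at 6, 12 and 24 h against 0 h, 2 to 4 for 24 h against 6 h, and 0 to 3 for the lymph nodes (0 without either wild-type array, 1 without lymph node 278, 279, 327, 381 or 383, 3 without 292), where a lone wild-type array was assumed to vary like the lymph nodes. With the most variable probe set 1 gene was called in the lymph nodes. With the replicate block all 10 genes were called for Ebf1-Engrailed, and 6, 6, 9 and 3 for Ebf1-ER at 6, 12 and 24 h against 0 h and 24 h against 6 h, where the numbers did not pair the arrays (correlations of -0.171 to 0.152). Calls over all 45037 probe sets moved more. For Ebf1-Engrailed 3984 became 6167 with the replicate block, 8274 without both samples numbered 3, 1532 and 1608 without Ebf1-Engrailed sample 1 or 2, and 2290 and 1912 without empty vector sample 1 or 2. For 24 h against 6 h 2778 became 1412 with only those times fitted and 940 to 1784 without any array of 6, 12 or 24 h, and for the lymph nodes 6842 became 3046 and 1770 without wild-type array 1 or 2. Fits per gene cover 18193 genes and call fewer by construction, such as 2474 with the most variable probe set for Ebf1-Engrailed and 3223 with the mean for the lymph nodes.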
